A study of Rattus norvegicus with 12 samples.

Results

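The symbols of 10 genes were taken as reference genes, those against which other transcripts are commonly divided in q-PCR and blots: Actb, Actg1, Gapdh, Hprt1, Tbp, B2m, Ppia, Ywhaz, Gusb and Sdha. Every gene record whose name equals one of them was kept, which gave 12 records of 10 names among the 22442 records measured. Actb and Actg1 had 2 records each and the other names 1. Of the 12 records, 10 reached a mean of 1 FPKM (fragments per kilobase of transcript, scaled to the mapped fragments of a library) over the libraries and were tested, among 11611 tested records in all, and both Actg1 records fell short of it. The question was which of these genes kept their level when synovial cells were treated with TCDCA.

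The cells were fibroblast-like synoviocytes (FLS), the fibroblasts that line the joint, grown from the synovium of male Sprague Dawley rats with adjuvant arthritis, a joint inflammation set off by complete Freund's adjuvant, and used at the third passage. TCDCA, taurochenodeoxycholic acid, is a bile acid joined to taurine, given here at 10 µM (group AT10), 1 µM (AT1) or 0.1 µM (AT01) for 12 h, while the FCA group received medium alone. Each group had 3 libraries, 12 in all, and all 4 groups came from arthritic rats, so no healthy cells were part of the comparison. The study calls the numbers 1 to 3 repeats of the experiment, without saying whether these used separate cultures or animals or were shared between groups, so the p-values measure the spread between these libraries, which may be technical. In a culture of mixed cells, fewer cells of a type and less RNA per cell cannot be told apart.

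The deposited values were FPKM without read counts per record, so the counting error of a single value is unknown. The paper lists the reads of each library, which were unequal, with the most in AT01 replicate 3. Those totals were not used here. FPKM summed to between 284210 and 309696 per library. Of 12 synovial fibroblast markers, 10 had a record and all 10 reached 1 FPKM, with a summed level of 4860 to 5588 FPKM in FCA, 3697 to 5184 in AT10, 4909 to 5029 in AT1 and 4392 to 4985 in AT01. Of 8 macrophage markers, 2 reached 1 FPKM, and none of 7 endothelial markers did, with a sum of at most 0.21 FPKM. Of 8 smooth muscle markers, 6 reached it, and their sum was 348 to 452 FPKM in FCA, 184 to 346 in AT10, 287 to 326 in AT1 and 256 to 323 in AT01.

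A reference gene is useful when its transcript level follows the amount of input RNA and little else. The genes chosen for this belong to separate household functions: the actin cytoskeleton, glycolysis, mitochondrial respiration, protein folding, purine salvage, the general transcription machinery, lysosomal breakdown, antigen presentation and adaptor proteins of signalling. Fibroblasts of the joint move, spread and contract, and actin genes are among those that serum and mechanical cues are known to change in such cells.

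The 250 bases before the start of 4 of these genes are printed because 2 of them, Sdha and Ppia, varied least between libraries and 2, Hprt1 and Gusb, varied most among the genes with their own promoter entry and a tested record. The sequences are RefSeq's for the assembly GRCr8, all on the plus strand. Sdha lies at chr1:30764303-30764552, Ppia at chr14:85492966-85493215, Hprt1 at chrX:137655494-137655743 and Gusb at chr12:32337057-32337306. Capitals mark matches to the TATA box letters TATAAA or the GC box letters GGGCGG, on either strand.
Sdha: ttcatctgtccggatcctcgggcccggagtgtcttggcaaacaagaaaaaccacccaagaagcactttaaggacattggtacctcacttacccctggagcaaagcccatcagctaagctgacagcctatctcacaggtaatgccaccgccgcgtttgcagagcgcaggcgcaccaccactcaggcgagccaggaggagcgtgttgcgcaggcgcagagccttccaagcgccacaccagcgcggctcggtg
Ppia: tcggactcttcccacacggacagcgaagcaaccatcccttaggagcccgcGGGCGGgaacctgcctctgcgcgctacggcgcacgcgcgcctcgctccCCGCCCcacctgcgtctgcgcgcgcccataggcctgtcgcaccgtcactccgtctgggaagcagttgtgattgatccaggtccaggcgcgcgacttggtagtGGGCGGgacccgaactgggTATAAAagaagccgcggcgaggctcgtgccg
Hprt1: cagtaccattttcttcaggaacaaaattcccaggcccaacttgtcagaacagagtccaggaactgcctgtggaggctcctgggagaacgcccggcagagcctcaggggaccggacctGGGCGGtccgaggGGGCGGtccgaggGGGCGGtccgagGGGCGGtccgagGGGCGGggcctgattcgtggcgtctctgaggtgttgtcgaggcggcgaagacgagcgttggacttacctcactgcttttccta
Gusb: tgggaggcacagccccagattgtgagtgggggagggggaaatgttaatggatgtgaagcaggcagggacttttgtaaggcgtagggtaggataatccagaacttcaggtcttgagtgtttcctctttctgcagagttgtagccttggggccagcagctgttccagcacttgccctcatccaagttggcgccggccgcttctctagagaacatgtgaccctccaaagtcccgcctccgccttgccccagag

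Matches to TATAAA were found in 3 of the 8 names with an entry, at -26 in Gapdh, -31 in Ppia and -163 in B2m relative to the start, against 12.9% of all 33469 promoters of this length. GC box letters were found 6 times in Actg1, 5 times in Hprt1, 3 times in Ppia and once in Tbp, against 30.5% of all promoters with at least 1. The median GC content of the 8 was 63.6%, against 51.2% over all promoters. Of the genes printed, Sdha and Gusb held neither set of letters, Ppia held both and Hprt1 held GC box letters only. These genes were picked by their spread in these libraries, and whether the letters go with steadiness was not tested. Actb and Ywhaz had no entry.

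None of the 10 tested records passed an adjusted p under 0.05 (limma on log2(FPKM + 1), Benjamini-Hochberg over all 11611 records) in any of the 7 comparisons between groups or in the F test over the 4 groups. The share of all records that passed was low as well, 0.172% in AT10 against FCA, 0.0947% in AT1, 0.0947% in AT01 and 0.0258% with the 9 TCDCA libraries together, and between doses 0.258% (AT10 and AT1), 0.0689% (AT10 and AT01) and 0.129% (AT1 and AT01), with 0.0431% over the 4 groups. Absence of a call was thus the usual state of a record, and a p over the threshold does not show that a level stayed the same. At an unadjusted p under 0.05, 1 record passed in AT10 (Hprt1), 1 in AT1 and 1 in AT01 (Actb both times), against 11.9%, 11% and 6.6% of all records. The same count was 1 with the doses together (12% of all records), 2 between AT10 and AT1 (6.46%), 3 between AT10 and AT01 (4.97%), 0 between AT1 and AT01 (3.43%) and 2 over the 4 groups (8.57%). The description therefore rests on the values, their intervals and their spread.

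Ordered by level, Actb had the highest mean, at place 11 of all tested records, followed by Ppia at 15, Gapdh at 94 and B2m at 292, and then Sdha, Ywhaz, Hprt1, Gusb and Tbp. Neighbours in this order were separate in every library except Actb and Ppia, whose ranges of 956 to 1557 and 1081 to 1349 FPKM overlapped, and Hprt1 and Gusb, where the lowest Hprt1 value of 16.6 FPKM was under the highest Gusb value of 17.3 FPKM.

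**Figure D1:**
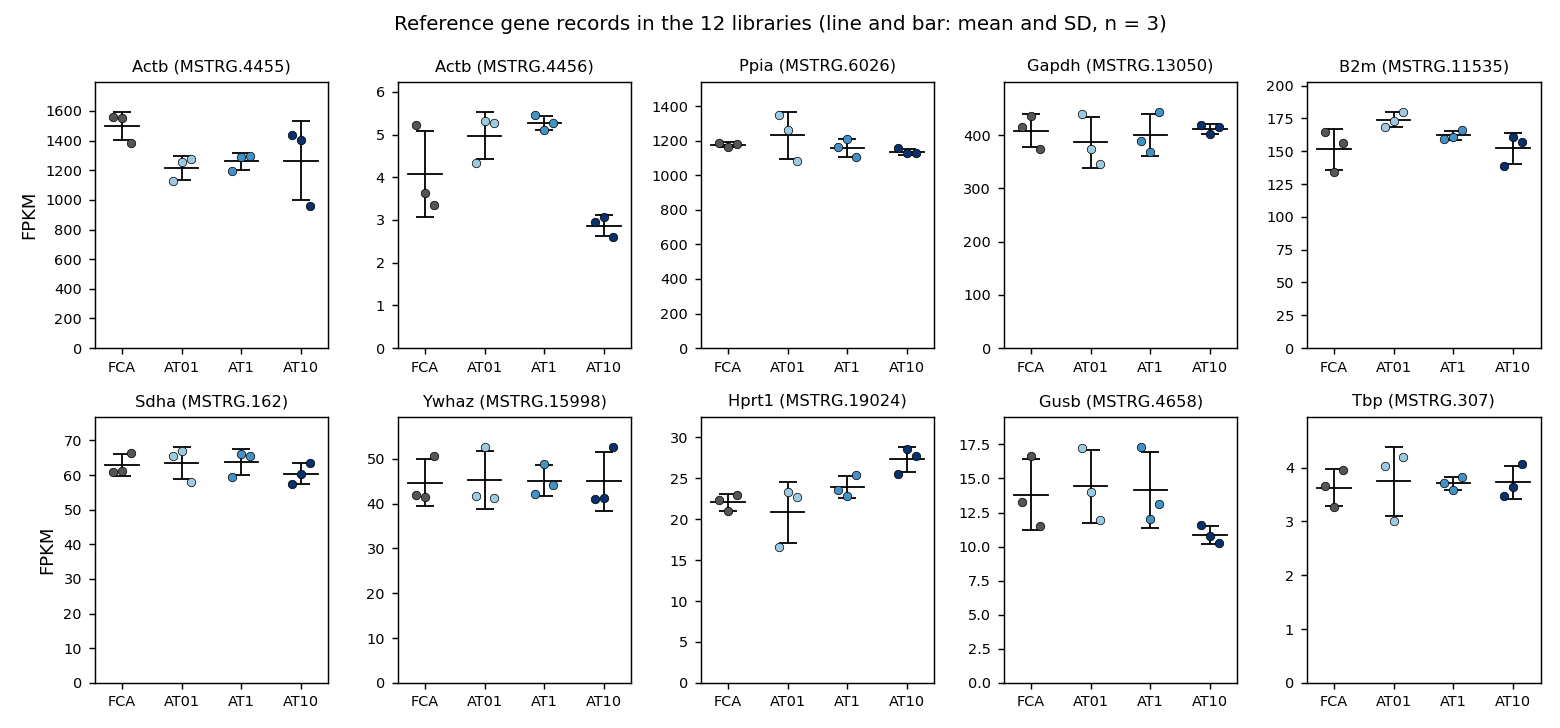
FPKM (linear axis from 0) of the 10 tested records in each library, with 3 points per group and the mean and SD as lines. Actb (MSTRG.4455) sits lower in the AT01 and AT1 libraries than in any FCA library, Hprt1 sits higher in AT10 than in any FCA library, and Sdha and Ppia keep nearly level.

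Actb encodes cytoplasmic beta-actin, the main actin of non-muscle cells and the divisor the study used in its q-PCR. Its abundant record, MSTRG.4455, lay at 1557, 1549.95 and 1387 FPKM in FCA, at 1436, 1403 and 956 in AT10, at 1196, 1291 and 1295 in AT1, and at 1125, 1253 and 1273 in AT01. All AT1 and all AT01 libraries were below all FCA libraries, whereas 2 of the 3 AT10 libraries reached into the FCA range and AT10 replicate 3 was the lowest of all 12. Groups that did not overlap and were lower made up 10% of all records in AT1 and 8.06% in AT01. The difference from FCA on the log2 scale was -0.25 in AT1 (95% interval -0.42 to -0.07, limma adjusted p = 0.42), -0.30 in AT01 (-0.52 to -0.08, limma adjusted p = 0.692) and -0.27 in AT10 (-0.69 to 0.16, limma adjusted p = 0.564).

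With the 9 TCDCA libraries together, beta-actin differed from FCA by -0.27 on the log2 scale, a fold of 0.829 with an interval from 0.708 to 0.971. Of the 9, 7 lay below the lowest FCA library and 2 within the FCA range. The two-sided exact permutation test of this one record gave p = 0.0273. The same test gave p from 0.191 (B2m) to 0.9 (Sdha) for the other tested reference gene records, with no adjustment for their number. For beta-actin, limma's adjusted p over all records was 0.362, so the difference did not pass. It was the largest such difference among the 10 records. Without AT10 replicate 3, it was -0.22 (interval -0.39 to -0.06, limma adjusted p = 0.386). Without FCA replicate 1 the interval was -0.52 to 0.04 and without FCA replicate 2 it was -0.53 to 0.04, so that the sign of its bounds rested on these libraries. With no filter on low records the interval was -0.56 to 0.02, and a Ballgown-like F test, which adds a library term, gave -0.17 (adjusted p = 0.633). The doses share the FCA libraries, so the 3 comparisons with FCA are not separate evidence.

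The second Actb record, MSTRG.4456, a single transcript with no Ensembl identifier, was weak, at 5.22, 3.63 and 3.35 FPKM in FCA, 2.95, 3.06 and 2.59 in AT10, 5.45, 5.11 and 5.26 in AT1, and 4.33, 5.31 and 5.28 in AT01. The AT10 libraries were below every other library. Groups lower in AT10 without overlap made up 9.18% of all records against FCA, 8.16% against AT1 and 6.47% against AT01. AT10 differed from AT1 by -0.70 (interval -0.89 to -0.51, limma adjusted p = 0.052) and from AT01 by -0.63 (-0.89 to -0.36, limma adjusted p = 0.435), and from FCA by -0.37 (-0.76 to 0.01, limma adjusted p = 0.427). It thus varied in another pattern than the abundant record, whose mean was lower than in FCA at all 3 doses, and reads of near-identical or overlapping transcripts can be split between such records. Whether it is part of the Actb messenger RNA cannot be told from FPKM.

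Actg1, cytoplasmic gamma-actin, could not be judged. Its record MSTRG.11262 was listed at 0 in 7 libraries and at no more than 1.16 FPKM elsewhere. The record MSTRG.11263 was listed at 0 in 9 libraries, with 6.59, 0.19 and 2.50 FPKM in AT1. Both hold only transcripts that StringTie assembled, with no Ensembl identifier, so the level of the annotated Actg1 transcript is not given by them.

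Among 5 other actin names, 4 had a record and 1, Acta2, the smooth muscle alpha-actin of contractile fibroblasts, reached 1 FPKM. Acta2 lay at 370, 317 and 263 FPKM in FCA, at 256, 247 and 125 in AT10, at 246, 224 and 216 in AT1, and at 185, 247 and 239 in AT01. All 9 TCDCA libraries were below all 3 FCA libraries, as were 1.9% of all records, and the lowest library was again AT10 replicate 3. The difference from FCA with the doses together was -0.54 (limma adjusted p = 0.347). Over the 12 libraries Actb and Acta2 had a Pearson's r of 0.93, and 0.86 over 11 libraries without AT10 replicate 3, given as a description, since all values come from the same libraries. The summed smooth muscle markers given above were lower in all 9 TCDCA libraries than in all 3 FCA libraries, but Acta2 made up most of that sum. Of the 6 tested smooth muscle records, 2 were lower without overlap and 2 had a difference above 0. Their median difference with the doses together was -0.01, so the list as a whole was not lower. Their part in the actin values was not tested.

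**Figure D2:**
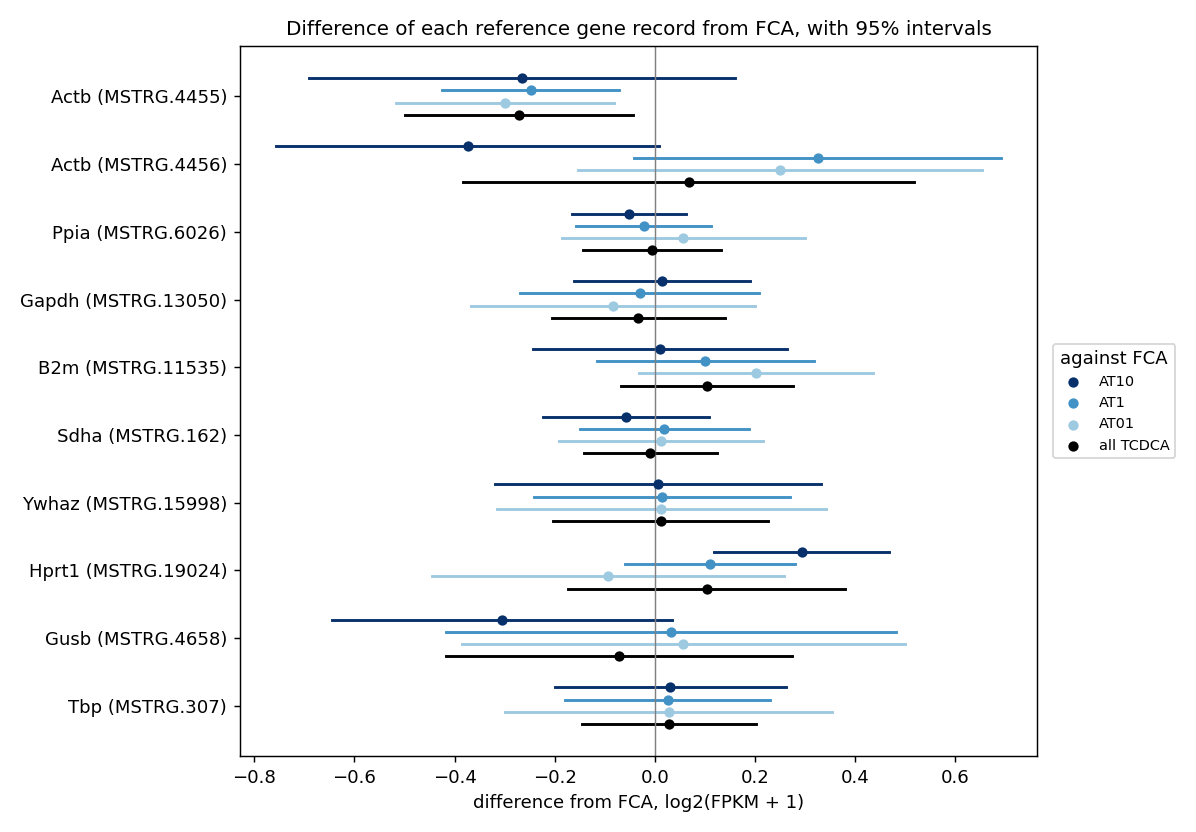
Difference from FCA on log2(FPKM + 1), with 95% intervals, for each tested record: AT10, AT1 and AT01 (3 libraries against 3) and all TCDCA libraries (9 against 3). The abundant Actb record lies left of 0 in all 4 rows, and the narrowest intervals with all doses together belong to Sdha and Ppia.

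Gapdh, the glycolytic glyceraldehyde-3-phosphate dehydrogenase, lay at 415, 435 and 375 FPKM in FCA, at 419, 402 and 415 in AT10, at 389, 369 and 444 in AT1, and at 440.19, 374 and 346 in AT01. Groups overlapped throughout, and the AT10 libraries were the closest to each other. The difference from FCA with the doses together was -0.03 (interval -0.21 to 0.14), and per dose it was 0.02 in AT10 (-0.16 to 0.19), -0.03 in AT1 (-0.27 to 0.21) and -0.08 in AT01 (-0.37 to 0.20). For a gene of its level this leaves room for a level between 0.867 and 1.10 of the control with the doses together.

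Further records of the same family did not keep their level. LOC108351137, which the study lists as a glyceraldehyde-3-phosphate dehydrogenase, and the pseudogene record Gapdh-ps2 were listed at either a high level or 0. Gapdh itself kept its range. The abundant LOC108351137 record was at 0 in all AT10 and AT01 libraries. Gapdh-ps2 was at 0 only in FCA replicate 3 and AT01 replicate 3, and at 195 to 266 FPKM elsewhere. Summed with these copies, the family ranged from 1603 to 1945 FPKM in FCA and from 1760 to 1838 in AT1, and from 597 to 640 in AT10 and 346 to 706 in AT01. The sum had a coefficient of variation (CV, the SD as a percent of the mean) of 53.9% over the 12 libraries and a highest value 5.61 times the lowest, against 7.83% and 1.28 times for the Gapdh record alone. With the doses together the sum differed from FCA by -1.09 on the log2 scale, with no test made of it. A listed 0 may be a failed estimate, and how reads were shared between near-identical copies is not given in the sources used here, so the split of reads between these records is uncertain.

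**Figure D3:**
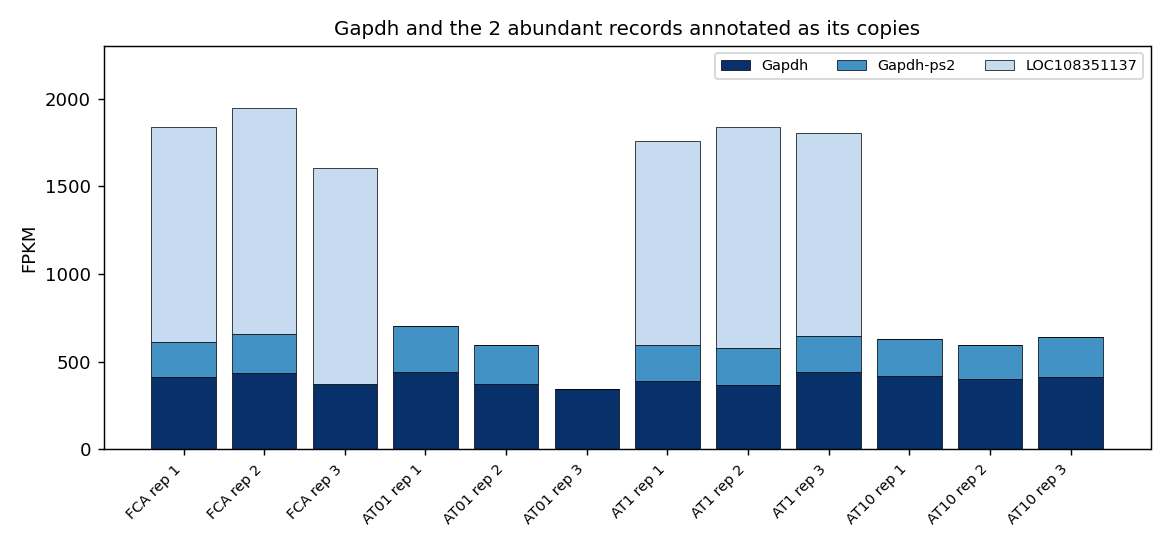
FPKM (linear axis from 0) of Gapdh and of the 2 abundant records annotated as its copies, stacked for each library. The Gapdh share keeps between 346 and 444 FPKM in all 12 libraries, while the LOC108351137 share is listed at 0 in all AT10 and AT01 libraries.

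Sdha, the flavoprotein subunit of succinate dehydrogenase in the respiratory chain and the citric acid cycle, lay at 61.0, 61.2 and 66.5 FPKM in FCA, at 57.3, 60.4 and 63.5 in AT10, at 59.6, 66.2 and 65.5 in AT1, and at 65.5, 66.9 and 58.1 in AT01. All groups overlapped, and no group stood apart. The difference from FCA with the doses together was -0.01 (interval -0.14 to 0.12), a fold of 0.994 with an interval from 0.907 to 1.09. Its standard error, 0.061, was the lowest of the 10 records in this comparison.

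Ppia, the cytosolic prolyl isomerase cyclophilin A, was close to it in steadiness at a level many times higher. It lay at 1188, 1162 and 1179.88 FPKM in FCA, at 1155, 1126 and 1126 in AT10, at 1164, 1209 and 1106 in AT1, and at 1349, 1259 and 1081 in AT01. The AT10 libraries were all just below the FCA libraries, which differed from each other by little, and 9.18% of all records were lower without overlap in this comparison. AT10 differed from FCA by -0.05 (interval -0.16 to 0.06, limma adjusted p = 0.659), and all doses together by -0.01 (-0.14 to 0.13). The AT01 libraries were the most spread and held both the highest and the lowest value of the series. Summed with Ppial4d, a Ppia-like record at 421 to 572 FPKM, the CV rose from 6.17% to 6.68% and the difference from FCA was 0.01.

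Ywhaz encodes 14-3-3 zeta, an adaptor that binds phosphorylated proteins. Its record lay at 42.0, 41.4 and 50.6 FPKM in FCA, at 41.1, 41.3 and 52.6 in AT10, at 42.2, 48.9 and 44.2 in AT1, and at 41.6, 52.7 and 41.3 in AT01. In FCA, AT10 and AT01 alike, 2 libraries stood at 41.1 to 42.0 FPKM and 1 at 50.6 to 52.7 FPKM, so that the groups differed less than the libraries within them. The difference from FCA with the doses together was 0.01 (interval -0.20 to 0.23), which is wider than for Sdha or Ppia.

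Tbp, the TATA-binding protein of the general transcription factor TFIID, was the least abundant, at 3.66, 3.27 and 3.96 FPKM in FCA, 3.48, 3.64 and 4.07 in AT10, 3.71, 3.58 and 3.83 in AT1, and 4.04, 3.00 and 4.19 in AT01. All groups overlapped. The 3 differences from FCA were each 0.03 on the log2 scale, with intervals from -0.20 to 0.26 in AT10, -0.18 to 0.23 in AT1 and -0.30 to 0.35 in AT01. At this level the added 1 FPKM shrinks a change on the log scale, and the number of reads behind the values is unknown.

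B2m, the light chain of class I antigen-presenting molecules, lay at 164, 134 and 156 FPKM in FCA, at 139, 161 and 157 in AT10, at 159, 161 and 166 in AT1, and at 168, 173 and 179.95 in AT01. The AT01 libraries were above all others. Without overlap, 5.97% of all records were higher in AT01 than in FCA, 6.47% were lower in AT10 than in AT01 and 3.75% were lower in AT1 than in AT01. AT10 and AT1 overlapped with FCA. AT01 differed from FCA by 0.20 (interval -0.03 to 0.44, limma adjusted p = 0.726), AT1 by 0.10 (-0.12 to 0.32) and AT10 by 0.01 (-0.24 to 0.26). FCA replicate 2 and AT10 replicate 1 were the lowest libraries.

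Hprt1, the purine salvage enzyme hypoxanthine-guanine phosphoribosyltransferase, lay at 22.3, 20.95 and 23.0 FPKM in FCA, at 25.6, 28.6 and 27.7 in AT10, at 23.6, 22.8 and 25.4 in AT1, and at 16.6, 23.3 and 22.7 in AT01. All AT10 libraries were above every library of the other groups, and AT01 replicate 1 was the lowest of all. AT10 differed from FCA by 0.29 (interval 0.12 to 0.47, limma adjusted p = 0.225), a fold of 1.23, and 10.7% of all records were higher without overlap in this comparison, with 5.7% in AT10 against AT1 and 4.64% in AT10 against AT01. It differed from AT1 by 0.18 (0.00 to 0.36, limma adjusted p = 0.748) and from AT01 by 0.39 (0.03 to 0.74, limma adjusted p = 0.867), and AT1 and AT01 overlapped with FCA. Without AT01 replicate 1, the difference between AT10 and AT01 was 0.24.

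Gusb, the lysosomal enzyme beta-glucuronidase, lay at 13.3, 16.6 and 11.5 FPKM in FCA, at 11.6, 10.8 and 10.3 in AT10, at 17.3, 12.1 and 13.1 in AT1, and at 17.3, 14.03 and 11.96 in AT01. The AT10 libraries were close together and below all AT1 libraries, as were 8.16% of all records, and below all AT01 libraries, as were 6.47%, but 1 of them lay just above the lowest FCA library. AT10 differed from FCA by -0.31 (interval -0.64 to 0.03, limma adjusted p = 0.446), from AT1 by -0.34 (limma adjusted p = 0.748) and from AT01 by -0.36 (limma adjusted p = 0.867), which was -0.23 without AT01 replicate 1. The other 3 groups each spanned a range of several FPKM.

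Across the 12 libraries, the CV was 5.50% for Sdha, 6.17% for Ppia, 7.83% for Gapdh, 8.13% for B2m, 9.36% for Tbp, 10.5% for Ywhaz, 13.2% for Actb, 13.4% for Hprt1, 18.7% for Gusb and 25.7% for the weak Actb record. Their median was 9.95%, against 15.1% over all tested records and 11.4% over the 4362 whose mean reached 10 FPKM. In CV, Sdha was at percentile 3.18 of all tested records and Ppia at 5.68, whereas Actb was at 42.0, Hprt1 at 42.9 and Gusb at 60.8. Among the 4362 records of at least 10 FPKM, the percentiles were 6.81 for Sdha, 11.3 for Ppia, 58.1 for Actb, 58.9 for Hprt1 and 73.5 for Gusb, so that Actb and Hprt1 were then above the median. A CV under 10% was reached by 5 of the 10 records and by 26.3% of all records. The highest library over the lowest was 1.17 for Sdha, 1.25 for Ppia, 1.63 for Actb, 1.69 for Gusb and 1.73 for Hprt1. Reference genes were thus not all steadier than the transcriptome at large.

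**Figure D4:**
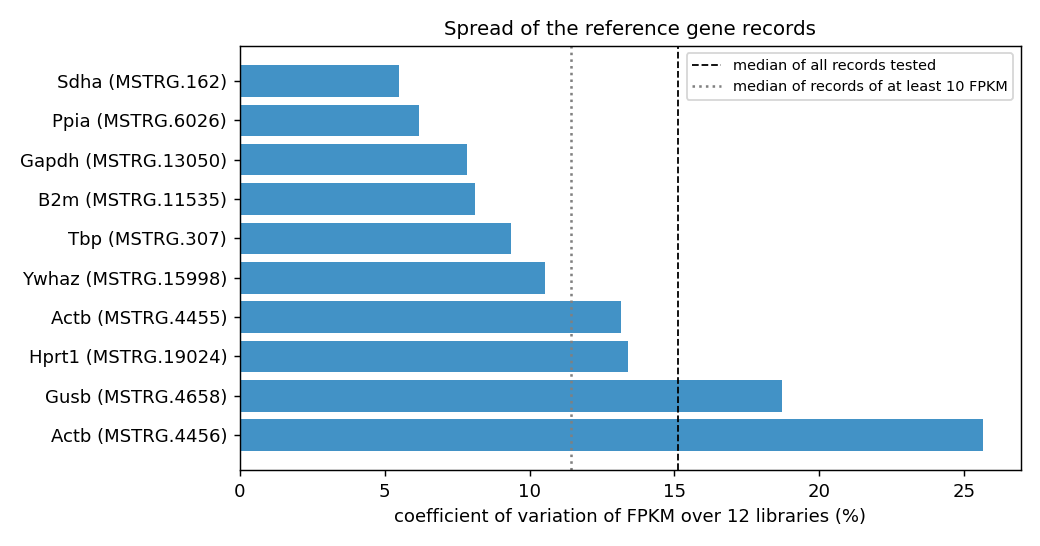
CV of FPKM over the 12 libraries (percent, bars from 0) for the 10 tested records, with the median of all tested records and of those of at least 10 FPKM as lines. Sdha and Ppia have the shortest bars, at 5.50% and 6.17%, and Gusb and the weak Actb record exceed the median of all records, 15.1%.

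A ratio of 2 genes of one library is free of any scaling between libraries. The geNorm measure M, the mean SD of the log2 ratio of a gene to each of the others, was 0.169 for Sdha, 0.178 for Ppia, 0.199 for Gapdh, 0.200 for B2m, 0.216 for Ywhaz, 0.221 for Tbp, 0.268 for Actb, 0.276 for Hprt1 and 0.307 for Gusb, with the record of highest level standing for each of the 9 names. Removing the gene of highest M step by step left out Gusb, Actb, Hprt1, Tbp, Gapdh, B2m and Ywhaz in turn. Sdha and Ppia remained, with an SD of their log2 ratio of 0.08 and a highest ratio 1.22 times the lowest. The widest of the 36 ratios was Hprt1 over Gusb, with an SD of 0.43 and a highest ratio 2.81 times the lowest.

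Genes that took a like course over the 12 libraries were looked up by Pearson's r of log2(FPKM + 1), as a description among 11611 records that share libraries. Closest to Actb was Tnrc18 with r = 0.96, to Gapdh Scarf1 with 0.98, to Hprt1 Rufy2 with 0.96, to Ppia Ndufs5 with 0.94 and to Gusb Dbp with 0.90. For Sdha it was Pmpcb with 0.89, for Ywhaz Gfm1 with 0.89, for Tbp Adamtsl1 with 0.90 and for B2m Dennd5b with 0.90. Some of these lay near the filter of 1 FPKM, Scarf1 at 0.7 to 1.68 FPKM and Rufy2 at 0.81 to 1.5 FPKM. Each r was picked as the highest found and was not tested. No member was the closest to another member. Within the 9 names, the highest r was 0.71 between Ywhaz and Sdha, and the lowest -0.73, between Hprt1 and each of Ppia and Gusb.

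Steadier genes existed at high levels. Of 490 named records whose mean reached 100 FPKM, the lowest SD of log2(FPKM + 1) belonged to Rac1, a small GTPase that directs actin assembly, at 107 to 120.29 FPKM and a CV of 2.98%. Eif3c, a translation initiation subunit, followed with 3.12%, and Morf4l1, a chromatin protein, with 3.46%. By the same SD, Ppia was at place 63 of the 490, Gapdh at 154, B2m at 172 and Actb at 318. Being picked for low spread in these libraries, the 3 leading genes are a description only.

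A further list held 35 other names in use as references, among them ribosomal proteins, elongation factors, ubiquitins and glycolytic enzymes, of which 30 had a record and 32 records were tested. None was called against FCA at any dose (limma adjusted p under 0.05), where at most 0.172% of all tested records were called. Their CV ran from 5.24% to 60.1% with a median of 9.15%, and 17 of the 32 were under 10%. Lowest was Ywhae, 14-3-3 epsilon, at 133 to 160 FPKM, and highest Tubb5, a beta-tubulin, at 156 to 646 FPKM, both named after their values were seen. Ywhae thus varied less than Ywhaz of the same family, and the difference was not tested.

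The relatives of the members were read the same way, again beside a share of at most 0.172% of all tested records called at any dose. Against FCA, no tested record was called at any dose among 5 other 14-3-3 records, 11 other cyclophilins, 6 other records of succinate dehydrogenase and its assembly, 8 of purine salvage and its neighbouring steps, 15 of class I antigen presentation and 13 of lysosomal glycosidases. The median difference from FCA with the doses together was -0.03 for the 14-3-3 list, 0.03 for cyclophilins, -0.09 for succinate dehydrogenase, -0.04 for purine salvage, 0.00 for class I antigen presentation and -0.01 for lysosomal glycosidases, against 0.00 over all tested records. In AT10, 3 of the 13 lysosomal glycosidases were above 0, with a list median of -0.07 against -0.01 over all tested records, and Gusb was -0.31. In the other doses more were above 0, 8 of the 13 in AT1 and 7 in AT01, with list medians of 0.05 and 0.03. Purine salvage genes had a median of -0.06 in AT10, where Hprt1 was 0.29.

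Among 11 tested records of TFIID and related TATA factors, 1 was called, Taf7 in AT10, where 0.172% of all tested records were called. It encodes a subunit of TFIID. Taf7 lay at 3.52, 2.51 and 3.36 FPKM in FCA, at 0.05, 0 and 0.07 in AT10, at 0, 2.36 and 0.03 in AT1, and at 2.44, 4 and 0 in AT01. AT10 differed from FCA by -1.98 (SE 0.13, limma adjusted p = 0.0112), but the libraries of AT1 and AT01 were either at the FCA level or near 0. A listed 0 may be a failed estimate of this record. Tbp itself differed by 0.03 in AT10.

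The study divided its q-PCR targets by beta-actin, and the same division was made here on FPKM for 4 of them: Srsf9, a splicing factor, Gpx3, an extracellular glutathione peroxidase, Cstb, an inhibitor of cysteine proteases, and Ctgf, a matricellular growth factor. The remaining target, Gapdh, is itself a reference gene here and was left out. For it the study calls the q-PCR result inconsistent with its RNA-seq, which it lists under LOC108351137. The study says the same of Ctgf and Cstb, and calls the results of Srsf9 and Gpx3 consistent between the methods. Division by a gene that is lower under TCDCA raises every target by the same amount. On these values, Actb as divisor raised a target's change against FCA by 0.27 on the log2 scale in AT10, 0.25 in AT1 and 0.30 in AT01, that is by 20.2%, 18.7% and 23.1%. Hprt1 lowered it by 0.31 in AT10, and Gusb raised it by 0.33 there. Sdha, Ppia, Ywhaz and Tbp moved it by at most 0.06 at any dose.

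In AT10, division by Gusb and by Hprt1 gave values 0.64 apart on the log2 scale, or 1.55-fold. The divisors farthest apart were Actb and Hprt1 in AT1, with 0.36 or 1.29-fold, and Actb and B2m in AT01, with 0.50 or 1.42-fold. Each of these 3 gaps, chosen as the widest of the 36 possible, had a two-sided exact permutation p of 0.1, the smallest that 3 libraries against 3 allow.

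The largest changes kept their direction over all 9 divisors, which was fixed in advance, since no divisor moved a target by more than 0.33. The study had already listed Srsf9 in AT1, Gpx3 in AT01, Cstb in AT01 and Ctgf in AT10 as differentially expressed in these libraries. Srsf9 in AT1 was between 1.00 and 1.37 higher on the log2 scale, with 1.12 undivided, and its FPKM passed limma in that comparison (1.07 on log2(FPKM + 1), limma adjusted p = 0.0288). Gpx3 in AT01 was between 0.97 and 1.47 higher, with 1.17 undivided. Cstb in AT01 was between 0.49 and 1.00 lower and Ctgf in AT10 between 1.04 and 1.67 lower, as means of 3 libraries that differed widely, with an SD over Actb of 0.69 in AT01 for Cstb and 1.08 in AT10 for Ctgf. Over Actb, Cstb in AT01 was -0.32 without AT01 replicate 1, -0.28 without AT01 replicate 2 and -0.89 without AT01 replicate 3. Ctgf in AT10 over Actb was -1.72 without AT10 replicate 2 and -0.75 without AT10 replicate 1. The study's q-PCR, also divided by beta-actin, went the other way for both genes. It reports Cstb as higher than the control after TCDCA at its different concentrations, and Ctgf as higher in AT10. The reason for this difference was not tested. Small changes turned with the divisor. Cstb in AT10 ran from -0.37 over Hprt1 to 0.27 over Gusb, with -0.06 undivided and 0.21 over Actb. Ctgf in AT01 was 0.15 over Actb and -0.15 undivided. None of the 108 ratios to a single reference gene passed an adjusted p under 0.05 by the exact permutation test, whose smallest adjusted value was 0.432, and 3 libraries against 3 could not have passed it.

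**Figure D5:**
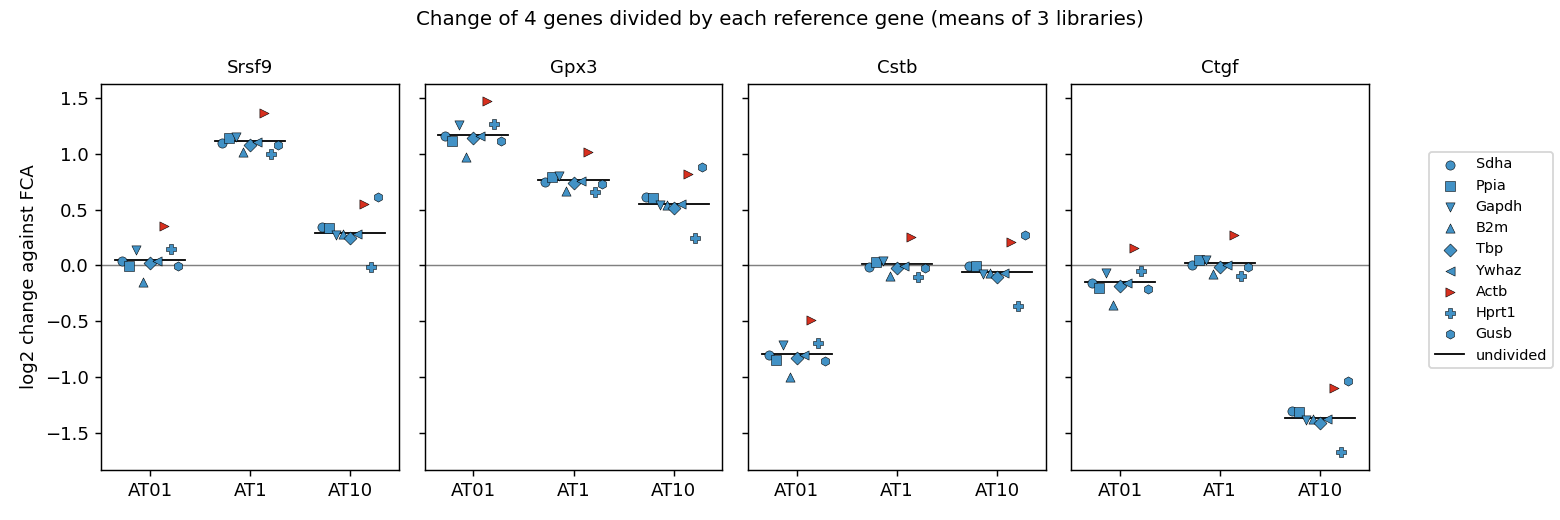
Log2 change against FCA of 4 genes at 3 doses after division by each of 9 reference genes (points, means of 3 libraries; Actb in red) and undivided (line). A divisor shifts all 4 genes of a dose alike, Actb by 0.25 to 0.30 above the line, and in AT10 the points of Hprt1 and Gusb lie farthest apart, by 0.64.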

How the data were processed

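Poly(A) RNA of the 12 libraries was sequenced with a strand-marking kit, per the labels. The authors dropped low-quality reads, aligned the rest with HISAT2, assembled transcripts with StringTie (the submitters' processing notes also name cutadapt), and deposited FPKM per gene record to 2 decimals, with no counts, and the genome build is not given in the sources used here. The labels and the paper name different sequencers and amounts of input RNA. No column of per-sample values was left out (0).

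Here 1 was added to each FPKM value, log2 was taken, and every record whose mean reached 1 FPKM was fitted with limma 3.58.1 in R 4.3.3 (lmFit, eBayes with trend) in a separate model per comparison. P-values were adjusted by Benjamini-Hochberg over all records tested, with a threshold of 0.05. Intervals are limma's, at 95%. Ratios between genes and exact permutation tests were computed with Python 3.11.15, NumPy 2.4.6, pandas 2.3.3 and SciPy 1.17.1. The fit was tested on simulated data first. No scaling between libraries was applied in the main values.

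Every record with a member's name was named. Of the further lists, the called record of largest change was named, along with relatives of a member where they bear on it, the closest record by correlation to each member, and the 3 steadiest records of at least 100 FPKM. The members and lists were chosen with earlier results of these data known, so none of the patterns is independent evidence. The same replicate numbers were used in every group for repeats of the experiment, per a note in the paper that does not say what libraries of a number shared. Of 18 pairs of libraries with the same number, 0 had deviations from the group means correlated over 0.1 (range -0.105 to 0.0942), so the numbers were not taken to pair the libraries. Alternatives were another added value (0.1), other filters, median-of-ratios scaling, sums by gene name, the replicate number as a block, a shared model of the 12 libraries, a Ballgown-like F test, and leaving out each library. Promoter letters came from RefSeq's GRCr8 tables, with 8 of 10 names matched.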

Additional observations from a re-analysis of the deposited data

Results flagged for a closer look

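Hprt1 held 1 library far from the others: over the 9 TCDCA libraries, the gap between AT01 replicate 1 at 16.6 FPKM and its nearest neighbour was 0.509 of the whole range. Chance sets apart about 1 in 20 such groups, and 10 records were looked at.

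The weak Actb record MSTRG.4456 lay below the FCA mean in all 3 AT10 libraries and above it in all AT1 and all AT01 libraries. AT10 differed from AT1 by -0.6998 (limma adjusted p = 0.052) and from AT01 by -0.6251 (limma adjusted p = 0.435) on the log2 scale, so that neither difference passed.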

How the results depend on the processing

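Of 122 counts of called reference gene records under other settings, 121 were 0. Without FCA replicate 1 the F test over the 4 groups called 1 record, the weak Actb record MSTRG.4456 (limma adjusted p = 0.043), so that this count ranged from 0 to 1 over the left-out libraries. The adjusted p of that record was between 0.043 and 0.596 over all settings of this test. With the replicate number as a block (replicate block), no reference gene record was called in any comparison (0 each), and Hprt1 in AT10 against FCA kept 0.2938 with an adjusted p of 0.439. Over all genes the 7 comparisons called 3 to 30 records, against 0 to 2 with that block, 0 to 5 in 1 fit over all libraries and 0 to 2 in the manner of Ballgown, and the cause was not tested. Differences of the TCDCA libraries from FCA that lay near 0 changed sign with the setting. Ywhaz was -0.1009 in the manner of Ballgown and Ppia 0.0089 when summed with Ppial4d, a choice made after seeing the data, as was the sum over the Gapdh copies. Leaving out each library gave -0.0935 to 0.0148 for Gapdh, -0.0385 to 0.1029 for Ywhaz, -0.0297 to 0.0313 for Sdha, -0.0285 to 0.0796 for Tbp, -0.0332 to 0.2247 for Actb MSTRG.4456, -0.186 to 0.0605 for Gusb and -0.0306 to 0.0094 for Ppia, while Actb MSTRG.4455 lay between -0.3253 and -0.224. In the manner of Ballgown that record was -0.1716 against FCA with the doses together and -0.1372 in AT1, in place of -0.27 and -0.25. Of the 12 combinations of target and dose, 8 were higher than FCA undivided and 10 over Actb. The count was 8 over Gapdh, 7 each over Ppia, Sdha and Ywhaz, 6 each over Gusb and Tbp, and 5 each over B2m and Hprt1. Each divisor shifts all targets of a dose alike, so these counts restate the levels of the divisors and turn only targets near 0. FPKM hold no read counts, and the read totals that the paper lists per library were not used, so what depth limits was not measured.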
